A study of Mus musculus with 13 samples.

Results

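Endothelial genes were followed in the glomeruli of mice with experimental membranous nephropathy (MN). The list held 35 of the 35967 gene symbols in the table. It was given by name and set no threshold on a measured value, but it and the other gene lists were drawn up with earlier results of these data known, so their counts beside the shares of all genes are descriptions. Of these, 31 mark the identity and function of endothelium and 4 (*Sele*, *Selp*, *Vcam1* and *Icam1*) mark its activation. Wildtype male Balb/c mice, 14 to 15 weeks old, received 2 mg of rabbit IgG intraperitoneally. Control mice (n = 5) received preimmune rabbit IgG, and MN mice received rabbit IgG against the podocyte protein THSD7A and were killed at day 1 (n = 4) or day 5 (n = 4). Control mice of both days formed 1 group, and the day of each was not given in the sources used here. No group held knockout mice. The antibody was made in another species and transferred passively, so the mice did not form it themselves. Each library came from the whole glomeruli of 1 mouse, isolated after perfusion of the kidneys with magnetic beads.

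Glomerular endothelial cells line the capillaries of the filter. They carry open fenestrae, lie on the basement membrane opposite the podocytes and depend on VEGF-A that podocytes release. Their identity is held by ETS and SOX transcription factors, and their junctions by VE-cadherin, PECAM1 and claudin-5. When activated by cytokines, endothelium displays selectins and the adhesion molecules VCAM1 and ICAM1, which capture leukocytes.

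Levels are given as the deposited TPM (a share of the library's transcripts that accounts for transcript length, so that levels of different genes can be set side by side). Differences are log2 fold changes of TPM after scaling between libraries and addition of 0.5. They were fitted with limma over the 14322 genes that reached a TPM of 1 in 4 or more libraries, with Benjamini-Hochberg adjustment in each comparison. A gene was called when its adjusted p was under 0.05 and its absolute log2 fold change above 0.5, the thresholds of the study. Because of the added 0.5, a change in a gene of low TPM comes out smaller than it was. Read depth was unknown, because TPM do not keep it, so no counting interval is given. In bulk RNA, fewer cells of a type and less RNA per cell cannot be told apart.

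The identity genes ran from 3.12 TPM (*Vwf*) to 4654 TPM (*Plat*) in their control means, and no member changed enough to be called. All 31 identity genes were above 0 in every library. Together they took 1.35% to 1.72% of the TPM of control libraries, 1.28% to 1.80% at day 1 and 1.501% to 1.837% at day 5, and these ranges overlapped. Of the 35 members, 34 passed the filter on low TPM and *Selp* did not. At day 1, 0 of 34 members were called by limma against 0.0908% of all tested genes. At day 5 the count was 0 of 34 against 3.21%, and between day 5 and day 1 it was 0 of 34 against 1.81%. At an unadjusted p under 0.05, limma passed 2 members at day 1, 12 at day 5 and 8 between the days, beside 12.6%, 20.1% and 15.5% of all tested genes. The p-values rest on the spread between single mice.

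Below the fold threshold, the identity genes lay mostly above control at day 5. By the adjusted p alone, 5 of 34 members (14.7%) passed at day 5 in the limma fit, beside 6.12% of all tested genes. Of these, *Cd34*, *Emcn*, *Sox17* and *Nos3* were higher and *Procr* was lower in MN mice, where the shares of all genes were 4.13% higher and 1.99% lower. The count of 5 depended on the processing. It was 2 of 34 after quantile normalization, beside 5.98% of all genes, and 2 of 34 without the trend in limma, beside 5.65%. In the fits without 1 library it ran from 2 to 5. The differences of the 31 identity genes had a median of 0.21 at day 5, with 27 above 0 and 4 below, while 49.3% of all tested genes were above 0 and their median was -0.0032. At day 1 the median was 0.06, with 22 above 0 and 9 below, beside 49.2% of all genes above 0, and 0 of 34 members passed by the adjusted p alone (0.133% of all genes). Between day 5 and day 1 the median was 0.11, with 26 above and 5 below (51.3% of all genes were above 0), and again 0 members passed, against 2.38% of all genes. Day 1 and day 5 were compared with the same control libraries. The deposited TPM without scaling moved all genes together, with 38.3% of them above 0 at day 1 and 41.8% at day 5. The identity genes then split into 16 above and 15 below at day 1 and 25 above and 6 below at day 5. Quantile normalization gave the same splits, with 46.3% and 47.1% of all genes above 0.

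**Figure D1:**
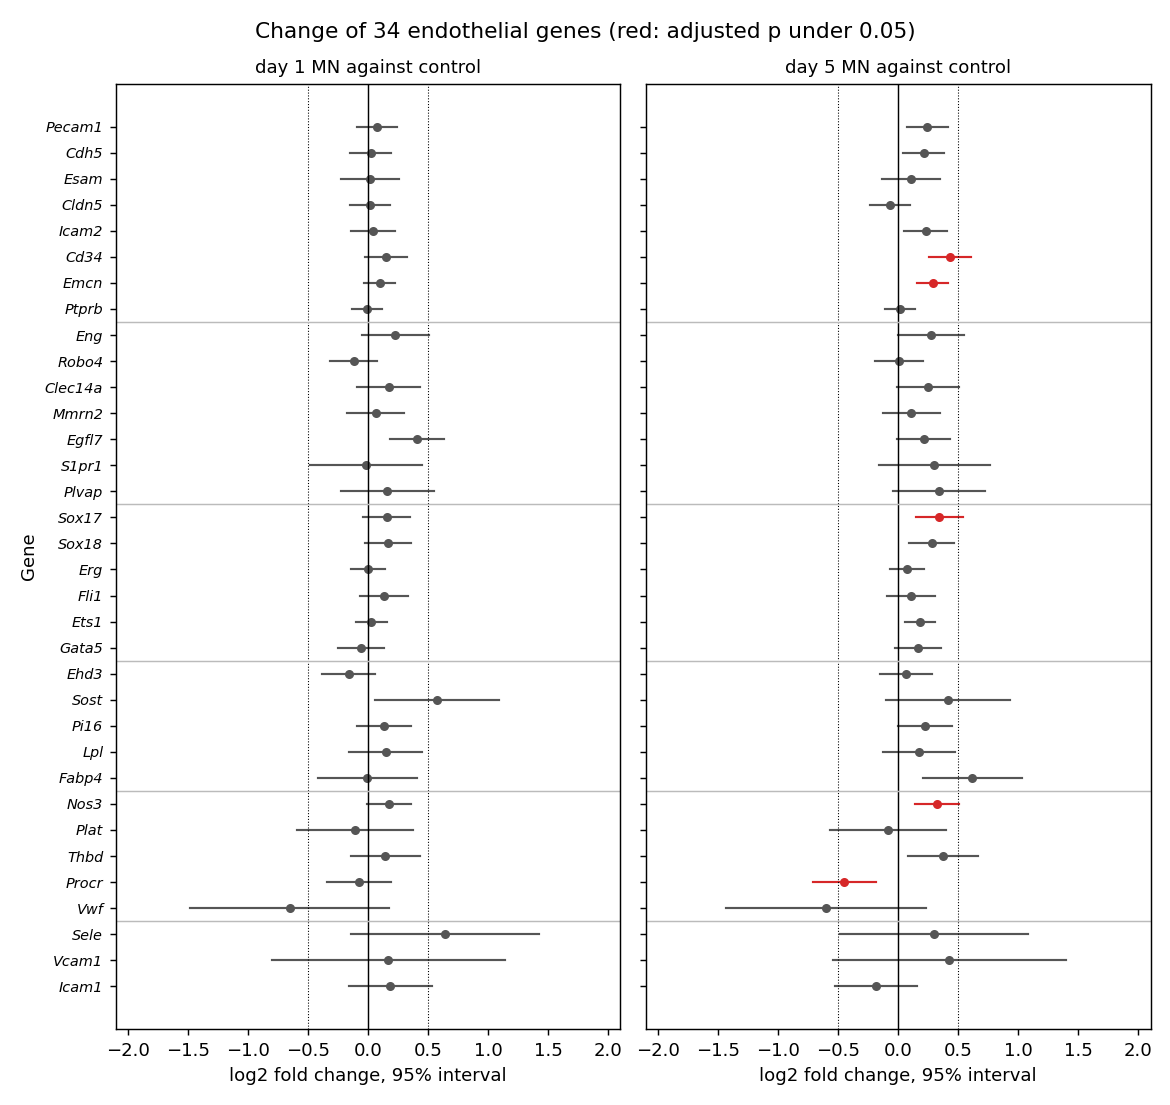
Differences of the 34 tested endothelial genes from control at day 1 (left) and day 5 (right), on the log2(scaled TPM + 0.5) scale. Points are limma estimates with their 95% intervals, dotted lines stand at the fold threshold of 0.5, and the 5 genes in red at day 5 passed by the adjusted p.

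Some libraries stood apart in ways that touch these values. Control replicate 5 was the lowest of the control libraries in 22 of 31 identity genes and the highest in 0. It also held the most RNA of tubule genes among controls, with 1172 TPM summed over 8 tubular markers against 433 to 881 in the other controls. Tubular markers summed to 876 to 1439 TPM at day 1 and 654 to 805 at day 5, and none of the 8 was at 0 throughout a group. Without control replicate 5, the median identity difference at day 5 was 0.16, with 25 above 0 and 6 below, and 3 members passed by the adjusted p (*Cd34*, *Emcn* and *Procr*). At day 1 the median without this library was 0.02, with 17 above 0 and 14 below, beside 47.6% of all genes above 0. With the tubular level as a covariate, a setting added after the data were seen, the median was 0.21 at day 1 (29 above 0, 2 below) and 0.20 at day 5 (26 above, 5 below). Between day 5 and day 1 that setting turned the median to -0.03, with 14 above 0 and 17 below. The mean log2 tubular level relative to control ran from 0.39 to 1.03 at day 1 and from -0.23 to 0.10 at day 5. These ranges did not overlap, so in that comparison the day and the tubular level cannot be told apart by this setting. The part of tubular RNA in these differences was not tested beyond this. Podocyte markers, the other large epithelial list, summed to 7578 to 10220 TPM in control libraries, 8385 to 10260 at day 1 and 9139 to 9819 at day 5. Of its 8 genes, 4 had differences above 0 at day 5 and 4 below. One was called, *Cdkn1c*, a cyclin-dependent kinase inhibitor of podocytes (0.72, limma adjusted p = 0.000708), beside 3.21% of all genes. *Synpo* (synaptopodin) was lower and passed by the adjusted p alone, as 1.99% of all genes did. It passed in all 13 fits without 1 library, between -0.49 and -0.42 (limma adjusted p up to 0.00982).

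Summed markers of other cell types of the glomerulus and its pole also stood apart in control replicate 5 or in MN mice. Mesangial markers summed to 2075 TPM in control replicate 5 against 2846 to 3190 in the other controls, and to 2373 to 2947 at day 1 and 2716 to 3054 at day 5. Smooth muscle and renin cell markers summed to 339.7 TPM in that library against 454.8 to 635.6 in the other controls, 445.7 to 665.8 at day 1 and 512.6 to 1027 at day 5. All 4 of them had differences above 0 at day 5, with a median of 0.41, and none passed in limma (1 with an unadjusted p under 0.05). The summed parietal epithelial markers of MN mice did not overlap with control, at 11.54 to 15.44 TPM in controls, 16.2 to 20.03 at day 1 and 18.32 to 22.86 at day 5. By gene, 0 of 3 were free of overlap with control at day 1 and 1 of 3 at day 5. Of all tested genes, 4.22% and 10.8% were. The day 5 differences of the 3 genes ran from 0.09 to 1.08, with a median of 0.22. One of these 3 genes, the tight junction gene *Cldn1*, was called at day 5 (1.08, limma adjusted p = 0.0036). Between the days, all 8 tubular markers were lower at day 5, with a median difference of -0.65. Of the 8, 6 were lower without overlap, where 4.93% of all tested genes were. By limma 1 of 8 was called, beside 1.81% of all genes. This was the collecting duct water channel *Aqp2* (-1.30, limma adjusted p = 0.0286). It did not pass without any 1 of day 1 replicates 1, 2 and 4 or day 5 replicates 1, 2 and 4 (adjusted p up to 0.0967). The part of these cell types in the endothelial differences was not tested.

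**Figure D2:**
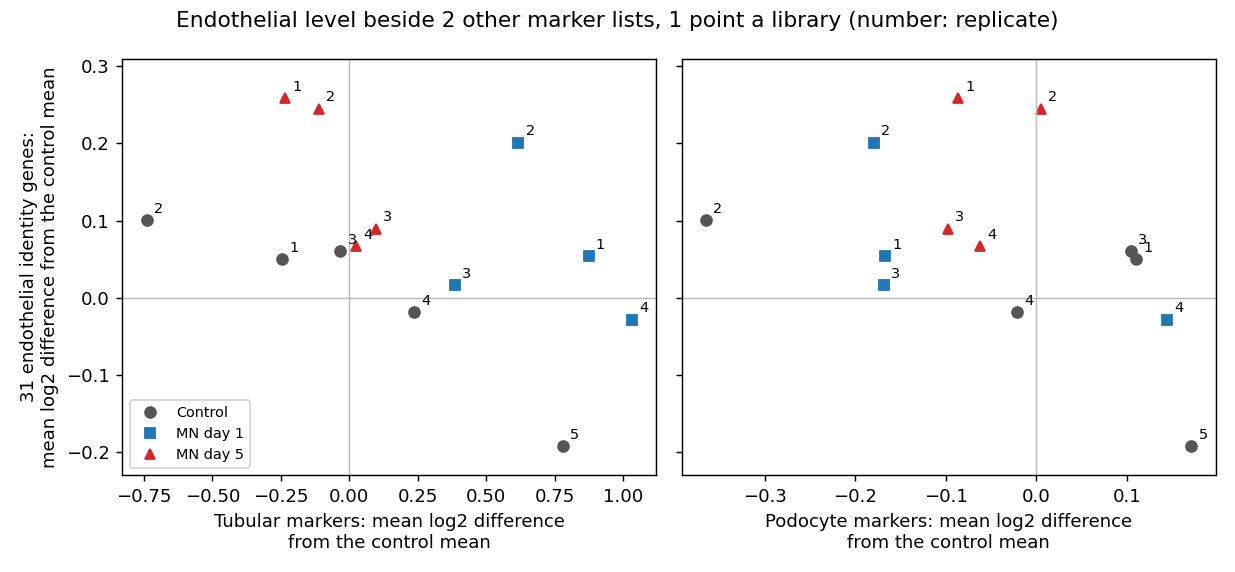
Mean log2 difference from the control mean of the 31 identity genes (vertical axis) against that of 8 tubular markers (left) and 8 podocyte markers (right), with 1 point for each of the 13 libraries and its replicate number. Control replicate 5 lies lowest at -0.19, and the 4 day 5 libraries lie between 0.07 and 0.26.

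Adhesion and junction genes held both members with the smallest adjusted p. Of the 8 genes, 7 had differences above 0 at day 5 and 2 passed by the adjusted p. *Cd34*, a sialomucin of the luminal surface, measured 364, 364, 342, 368 and 276 TPM in the 5 control libraries, 408, 344, 348 and 367 at day 1, and 425, 489, 462 and 422 at day 5. All day 5 libraries lay above every control and every day 1 library. The fitted difference at day 5 was 0.43 ± 0.08 (SE), with a limma adjusted p of 0.00613, and at day 1 it was 0.15 ± 0.08 (adjusted p = 0.472). The day 5 difference stayed past the adjusted p threshold in all 13 fits that left out 1 library, between 0.37 and 0.47.

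*Emcn*, which encodes the capillary and venous sialomucin endomucin, was the second. It measured 1383, 1419, 1333, 1279.5 and 1151 TPM in controls, 1416, 1319, 1383 and 1307 at day 1, and 1587.5, 1604, 1534 and 1510.1 at day 5. The groups overlapped at day 1, and all day 5 libraries were above the others. The limma difference was 0.29 ± 0.06 (SE) at day 5 (adjusted p = 0.0127) and 0.10 ± 0.06 at day 1 (adjusted p = 0.541). It passed in 12 of 13 fits without 1 library, the exception being the fit without day 5 replicate 2 (adjusted p = 0.0523), and not after quantile normalization (adjusted p = 0.0998).

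The bases upstream of *Cd34* and *Emcn* are shown because these genes had the smallest adjusted p among the members, and ETS factors are known regulators of endothelial genes. Both come from the GRCm39 genome, plus strand, at chr1:194620877-194621028 and chr3:137046544-137046793, directly before the annotated gene. The window was 250 bases before the start site of the canonical transcript, and of *Cd34* only the 152 bases outside annotated exons are given. Capitals mark the ETS letters, CAGGAAG or CCGGAAG on either strand. Here both read CTTCCTG, the reverse complement of CAGGAAG, at positions -140 and -129 from the start site.
Cd34: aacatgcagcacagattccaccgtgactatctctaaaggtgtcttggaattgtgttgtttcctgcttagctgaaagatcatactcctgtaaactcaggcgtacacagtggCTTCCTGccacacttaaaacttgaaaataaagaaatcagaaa
Emcn: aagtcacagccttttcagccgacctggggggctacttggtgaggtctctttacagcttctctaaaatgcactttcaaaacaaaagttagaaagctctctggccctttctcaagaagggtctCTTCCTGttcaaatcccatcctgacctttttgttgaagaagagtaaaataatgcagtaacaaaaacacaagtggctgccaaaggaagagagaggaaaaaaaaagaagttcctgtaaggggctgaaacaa
These letters were found in 10 of 31 identity gene windows (32.3%) and in 16.1% of 21770 windows of protein-coding genes. The other 8 were those of *Erg*, *Icam2*, *Lpl*, *Mmrn2*, *Ptprb*, *Sox17*, *Sox18* and *Vwf*. Of the 5 genes that passed by the adjusted p, *Nos3* and *Procr* had no match. A match describes the letters only, and binding was not measured.

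Among the remaining junction genes, *Pecam1*, the platelet and endothelial adhesion molecule, measured 486, 527, 549.9, 503 and 415 TPM in controls. It measured 526, 529, 483 and 484 at day 1 and 586, 606, 576 and 518 at day 5. Only day 5 replicate 4 reached into the control range, and the limma difference of 0.24 at day 5 had an adjusted p of 0.0881. *Cdh5*, which encodes VE-cadherin, measured 281, 291, 281, 283 and 225 TPM in controls, 281, 286, 249 and 252 at day 1, and 305, 326, 319 and 277 at day 5. Control replicate 5 was low, and 1 day 5 library lay within the control range. Its difference was 0.02 at day 1 (95% interval -0.15 to 0.19) and 0.21 at day 5 (0.04 to 0.38, limma adjusted p = 0.147). *Icam2*, an adhesion molecule that resting endothelium carries, had a difference of 0.23 at day 5 (adjusted p = 0.141 by limma). *Esam* (0.10), *Ptprb* (0.01), which encodes the phosphatase VE-PTP, and the tight junction gene *Cldn5* (-0.07) had 95% intervals that spanned 0 at day 5.

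**Figure D3:**
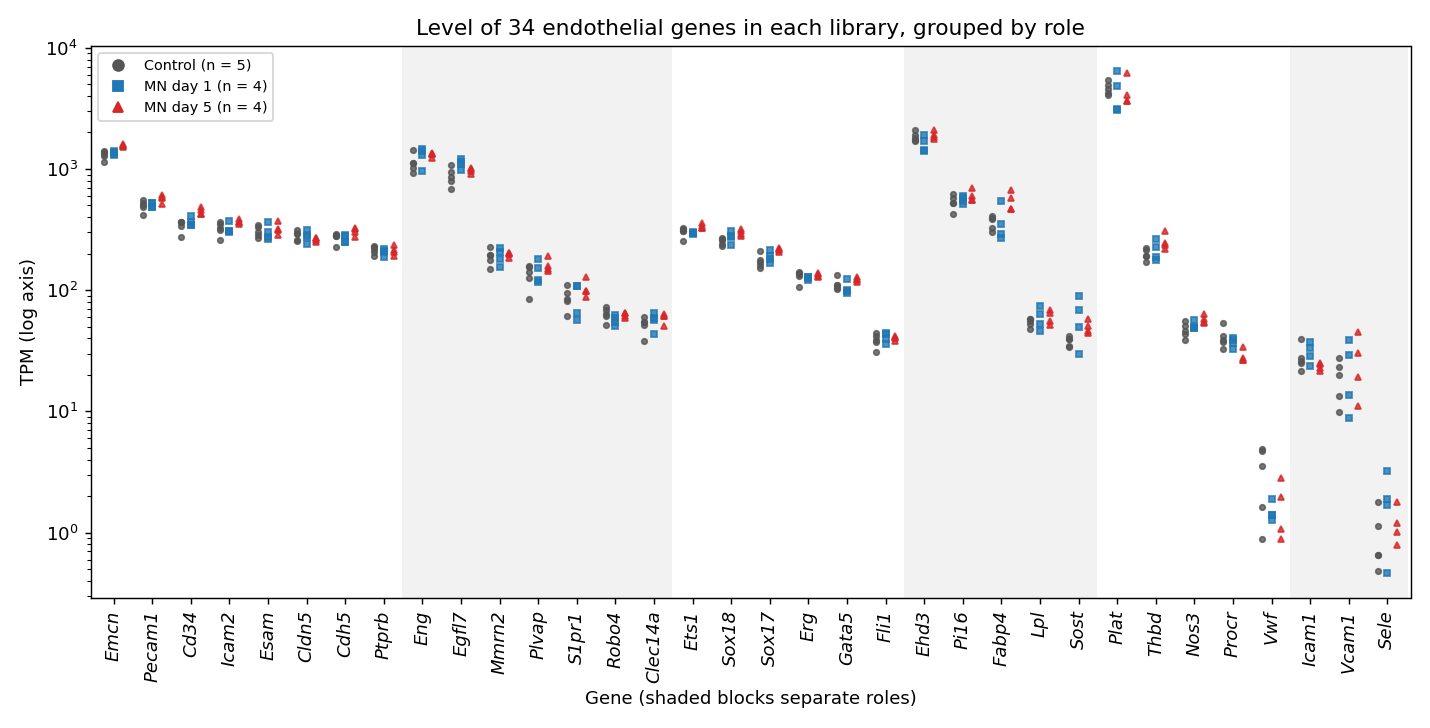
TPM of 34 endothelial genes (logarithmic axis) in each of 13 libraries, with shaded blocks for the 6 roles and genes ordered by their control mean within a role. *Selp* is left out because 4 libraries were listed at 0. *Plat* and *Ehd3* lie highest and *Vwf* and *Sele* lowest.

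Receptors and matrix proteins of the endothelial surface had no member that passed. All 7 differences were above 0 at day 5, from 0.00 (*Robo4*) to 0.34 (*Plvap*). *Egfl7*, a secreted protein of the endothelial matrix, had the smallest unadjusted p of any member at day 1. It measured 943, 1085, 799, 853 and 677 TPM in controls, 1137, 1204, 985 and 1102 at day 1, and 914, 992, 1027 and 959.5 at day 5. At day 1, 3 of 4 libraries lay above every control. The difference of 0.41 ± 0.10 (SE) at day 1 did not pass in limma (adjusted p = 0.178), nor did 0.21 at day 5 (adjusted p = 0.276). *Plvap*, which forms the diaphragms of fenestrae and is low in mature glomerular capillaries, measured 157, 141, 158, 126 and 83.9 TPM in controls, 154, 116, 121 and 181 at day 1, and 159.7, 193, 149 and 145 at day 5. The groups overlapped, and the limma differences were 0.16 at day 1 (adjusted p = 0.751) and 0.34 at day 5 (adjusted p = 0.317). *Eng*, the TGF-beta co-receptor endoglin, was the most abundant gene of this role, at 1126 ± 197 TPM (SD, n = 5) in controls, with a limma difference of 0.27 at day 5 (adjusted p = 0.256). *S1pr1*, the receptor for sphingosine 1-phosphate, ranged over 2.28 times between the lowest and highest library and overlapped in all groups. *Clec14a* (0.25 at day 5) and its matrix ligand *Mmrn2* (0.11) had intervals that spanned 0.

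Among transcription factors, *Sox17* was higher at day 5. This SOXF factor, known for its part in arterial identity, measured 172, 212, 151, 178 and 161 TPM in controls, 215, 190.4, 180.2 and 167 at day 1, and 221, 214, 221 and 205 at day 5. Control replicate 2 reached into the day 5 range. The difference at day 5 was 0.34 ± 0.09 (SE), with a limma adjusted p of 0.0403, and 0.15 at day 1 (adjusted p = 0.504). It passed in 4 of 13 fits without 1 library, and not without control replicate 1, 3, 4 or 5, day 1 replicate 2 or any 1 of the day 5 replicates (adjusted p up to 0.121). *Sox18*, a related SOXF factor, did not overlap between day 5 (279.8 to 321 TPM) and control (229.6 to 269.9 TPM), and its difference of 0.28 had a limma adjusted p of 0.0832.

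None of the ETS factors passed, nor did *Gata5*. At day 5 the differences were 0.18 for *Ets1*, 0.11 for *Fli1* and 0.07 for *Erg*, with limma adjusted p of 0.0964, 0.599 and 0.604. *Gata5*, a GATA factor found in glomerular endothelium, had 0.16 (adjusted p = 0.345, limma). At day 1, the 6 factors lay between -0.06 and 0.17. The 4 day 5 libraries lay above the 4 day 1 libraries for *Erg* and *Ets1*, as they did for *Cd34* and *Emcn*. These were the 4 members with no overlap between the days, all higher at day 5, where 6.12% of all tested genes were higher without overlap.

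Genes typical of glomerular and other capillaries gave a wider spread. *Ehd3*, an endocytic recycling protein that marks glomerular endothelium in the kidney, measured 1814.5, 2109, 1903, 1709.5 and 1749 TPM in controls, 1423, 1918, 1709 and 1419 at day 1, and 2078, 1889, 1772 and 1824 at day 5. The 2 lowest of the 13 libraries were both of day 1, while the other 2 lay near or within the control range. The differences were -0.16 at day 1 (95% interval -0.38 to 0.06) and 0.06 at day 5 (-0.16 to 0.28), with limma adjusted p of 0.539 and 0.801. *Ehd3* ranked 44 among all genes by its control mean.

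*Fabp4*, a fatty acid carrier of capillary endothelium, had the largest positive difference of the members at day 5. It measured 387, 396, 408, 324 and 303 TPM in controls, 267, 541, 352 and 289 at day 1, and 667, 580.2, 468 and 470.5 at day 5. All day 5 libraries were above the controls, and day 1 replicate 2 lay within the day 5 range. The difference of 0.62 ± 0.19 (SE) at day 5 did not pass in limma (adjusted p = 0.0783). Without day 1 replicate 2 it was called at day 5 (0.62, adjusted p = 0.0178) and between the days (0.84, adjusted p = 0.0141), and it was called at day 5 with only the 2 compared groups in the limma fit (adjusted p = 0.0267).

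*Sost*, which encodes the WNT antagonist sclerostin, measured 41.6, 40.0, 34.1, 39.8 and 34.7 TPM in controls, 68.3, 90.3, 29.6 and 49.8 at day 1, and 44.35, 58.3, 45.8 and 50.5 at day 5. Day 1 held both the highest and the lowest library. Its limma differences were 0.58 at day 1 (adjusted p = 0.362) and 0.41 at day 5 (adjusted p = 0.376). *Pi16*, a secreted peptidase inhibitor homolog, and *Lpl*, lipoprotein lipase, had day 5 differences of 0.22 and 0.17 with intervals that spanned 0. In all, 5 members lay above control without overlap at day 5 (*Cd34*, *Emcn*, *Sox18*, *Sost* and *Fabp4*) and 0 below, where 5.07% of all tested genes lay above and 5.71% below. At day 1 no member was free of overlap with control, where 4.22% of all genes were.

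**Figure D4:**
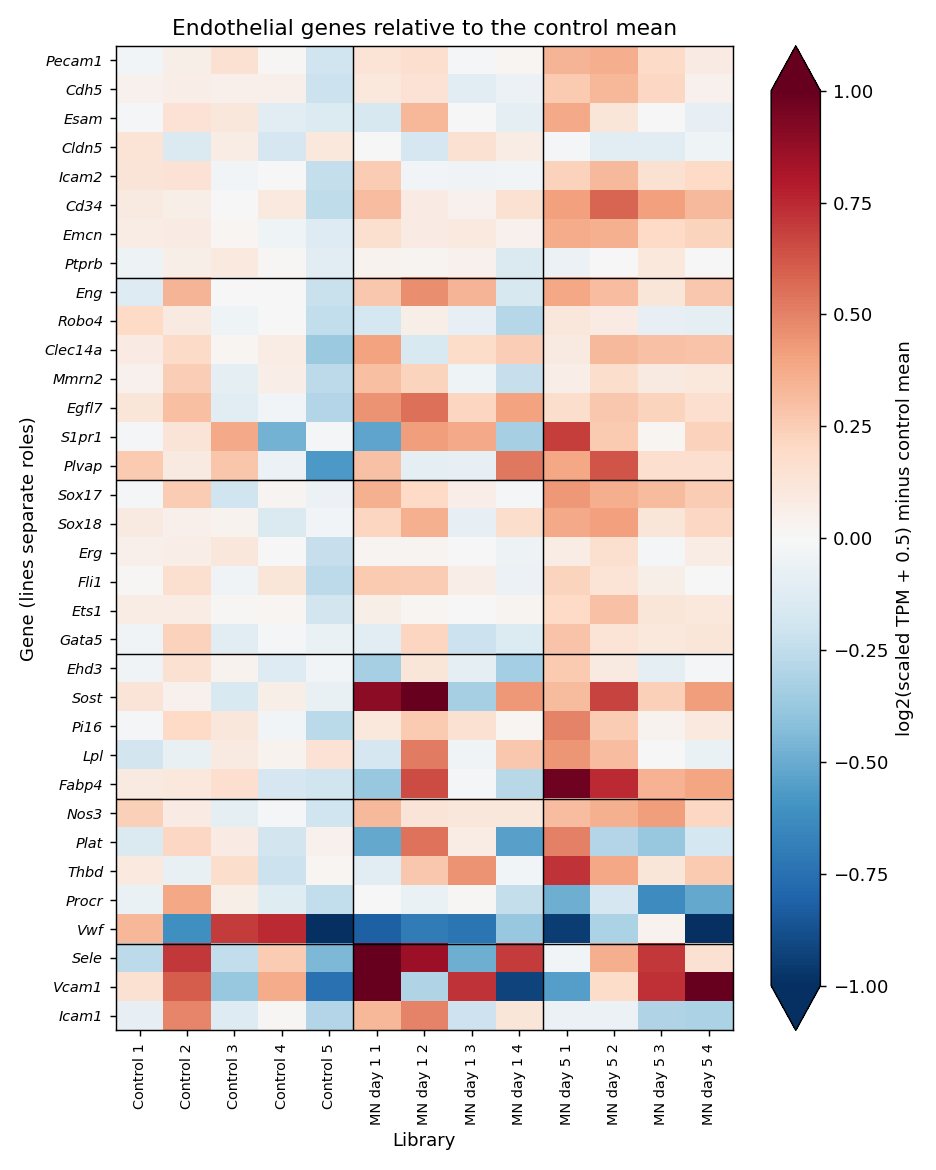
Difference of each library from the control mean on the log2(scaled TPM + 0.5) scale for 34 endothelial genes in 13 libraries (color bar from -1 to 1, with values beyond shown at its ends). Control replicate 5 is blue across most identity genes. Day 5 libraries are mostly red, and *Procr* is blue in all 4 of them.

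Genes of vascular tone and coagulation went in both directions. *Nos3*, the endothelial nitric oxide synthase, measured 55.4, 50.6, 43.9, 46.3 and 39.1 TPM in controls, 56.7, 48.7, 50.03 and 49.1 at day 1, and 54.2, 57.4, 64.0 and 53.5 at day 5. Control replicate 1 lay inside the day 5 range. The difference at day 5 was 0.32 ± 0.08 (SE, limma adjusted p = 0.0403), and at day 1 it was 0.17 (adjusted p = 0.425). It passed in 5 of 13 fits without 1 library, and not without control replicate 3, 4 or 5, day 1 replicate 2 or 4, or day 5 replicate 1, 2 or 3 (adjusted p up to 0.11).

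*Procr*, the endothelial protein C receptor, was the one member that passed as lower. It measured 38.5, 53.8, 42.0, 37.2 and 32.5 TPM in controls, 38.7, 36.7, 40.0 and 32.9 at day 1, and 26.8, 34.3, 26.3 and 27.8 at day 5. Of the day 5 libraries, 3 of 4 lay below every other library, and replicate 2 lay within the control range. The difference was -0.45 ± 0.12 (SE, limma adjusted p = 0.0475) at day 5 and -0.07 (adjusted p = 0.851) at day 1. Without control replicate 5 it was -0.51 (adjusted p = 0.0305) and without day 5 replicate 2 it was -0.54 (adjusted p = 0.0289), both then past the fold threshold. Without any other single library the limma adjusted p was above 0.05, up to 0.124, so that *Procr* passed in 2 of 13 such fits.

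Upstream of *Procr*, on the plus strand at chr2:155592781-155593030 (GRCm39), the window held no ETS letters and no NF-kB consensus. It is shown as the promoter of the member that was lower, and therefore has no capitals.
Procr: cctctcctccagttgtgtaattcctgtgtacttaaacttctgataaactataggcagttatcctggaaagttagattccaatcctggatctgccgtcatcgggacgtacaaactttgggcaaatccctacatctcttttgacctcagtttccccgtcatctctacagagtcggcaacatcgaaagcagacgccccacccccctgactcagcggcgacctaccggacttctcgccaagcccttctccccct

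*Thbd*, which encodes thrombomodulin, the thrombin receptor that activates protein C together with the receptor above, had a difference of 0.37 at day 5 (95% interval 0.08 to 0.66, limma adjusted p = 0.132). *Plat*, tissue plasminogen activator, was the most abundant member and ranked 12 among all genes by its control mean. It measured 4213, 5457, 4903, 4096 and 4601 TPM in controls, 3134, 6429, 4808 and 3074 at day 1, and 6148, 3611, 3637 and 4066 at day 5. The highest and lowest libraries were both from MN mice, and the coefficient of variation was 36.6% at day 1 against 11.8% in controls. Its differences were -0.11 at day 1 (-0.59 to 0.37) and -0.09 at day 5 (-0.57 to 0.40). *Vwf*, von Willebrand factor, which is typical of larger vessels, was low at 3.12 ± 1.80 TPM (SD, n = 5) in controls, 1.49 ± 0.28 (n = 4) at day 1 and 1.69 ± 0.89 (n = 4) at day 5. Control libraries alone ran from 0.885 to 4.87 TPM, and the limma adjusted p was 0.506 at day 1 and 0.432 at day 5.

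Of the 4 activation markers, *Sele* and *Selp* were low, and none of the 3 that were tested passed at either day. *Sele*, a selectin that endothelium makes on activation, measured 0.648, 1.78, 0.657, 1.14 and 0.483 TPM in controls, 3.25, 1.90, 0.469 and 1.68 at day 1, and 0.794, 1.21, 1.78 and 1.02 at day 5. Day 1 held the highest and the lowest library. The difference was 0.64 at day 1 (95% interval -0.15 to 1.43, limma adjusted p = 0.492) and 0.30 at day 5 (-0.49 to 1.08, adjusted p = 0.726).

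*Selp*, the selectin stored in endothelial granules and platelets, lay at or under 0.224 TPM in all libraries but one. It was listed at 0 in 1 control library and at 0.0474 to 0.111 in the other 4, at 0, 0.0781, 0.127 and 0.779 at day 1, and at 0, 0, 0.182 and 0.224 at day 5. Day 1 replicate 2 held the single high value. Because of its level, *Selp* was not fitted.

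*Vcam1*, the ligand of the leukocyte integrin VLA-4, measured 19.8, 27.8, 13.5, 23.1 and 9.90 TPM in controls, 39.0, 13.6, 29.1 and 8.77 at day 1, and 11.1, 19.2, 30.2 and 45.0 at day 5. Each group spread over more than the distance between group means. The differences of 0.17 at day 1 (-0.80 to 1.14, limma adjusted p = 0.919) and 0.43 at day 5 (-0.55 to 1.40, adjusted p = 0.678) had intervals on both sides of 0. *Vcam1* is also made by parietal epithelial and tubular cells, and its cell of origin was not measured.

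*Icam1*, the ligand of leukocyte integrin LFA-1, measured 26.0, 39.7, 25.2, 27.8 and 21.5 TPM in controls, 33.6, 37.1, 23.5 and 28.9 at day 1, and 24.8, 25.1, 22.7 and 21.7 at day 5. All groups overlapped. The difference was 0.19 at day 1 (-0.16 to 0.53, limma adjusted p = 0.661) and -0.18 at day 5 (-0.53 to 0.16, adjusted p = 0.589), and -0.37 between day 5 and day 1 (-0.73 to -0.01, adjusted p = 0.31). Its upstream window is shown because it was the one member window with an NF-kB consensus match, searched on both strands, which capitals mark at position -243 (chr9:20926422-20926671, GRCm39, plus strand).
Icam1: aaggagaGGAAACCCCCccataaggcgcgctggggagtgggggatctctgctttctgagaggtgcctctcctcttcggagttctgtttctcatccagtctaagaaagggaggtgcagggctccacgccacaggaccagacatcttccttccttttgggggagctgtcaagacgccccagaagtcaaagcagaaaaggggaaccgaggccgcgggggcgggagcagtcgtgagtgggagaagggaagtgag
That consensus was present in 0 of 31 identity windows, 1 of 4 activation windows and 4.23% of 21770 windows. ETS letters were present in 1 of the 4 activation windows, that of *Sele* at position -36, and no member window held both motifs. Factor binding was not measured.

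**Figure D5:**
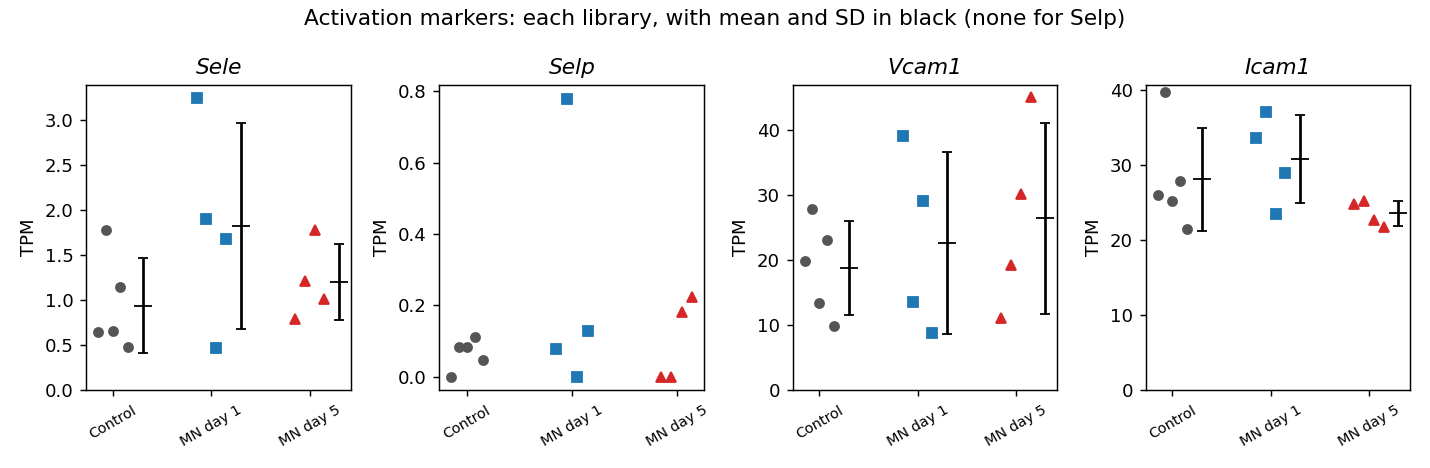
TPM of the 4 activation markers in each library, with group means and SD in black for the 3 genes that were fitted. Groups overlap for each gene, and day 1 replicate 2 holds the high *Selp* value of 0.779.

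Endothelial genes outside the members included some that were called at day 5. Of 30 further endothelial identity genes, all tested, 3 rose, beside 2.42% of all genes that rose, and none fell, and 24 of 30 differences were above 0. *Adgrl4*, an adhesion receptor of vascular endothelium, measured 242, 298, 269.6, 251 and 248 TPM in controls, 308, 333, 319 and 274 at day 1, and 387, 357, 339.6 and 363 at day 5. All day 5 libraries were above the rest. Its difference was 0.50 ± 0.08 (SE, limma adjusted p = 0.00143), on the fold threshold, and under the threshold without control replicate 1, 4 or 5 or day 5 replicate 1 (0.45 to 0.50).

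*Calcrl*, the receptor for adrenomedullin and calcitonin gene-related peptide, measured 189, 200.3, 195, 188 and 184 TPM in controls, 191, 209, 233 and 161 at day 1, and 272, 250.2, 264 and 271 at day 5. Day 5 was again above all other libraries. The limma difference was 0.50 ± 0.08 (SE, adjusted p = 0.00215), under the fold threshold without control replicate 1 or 4 or day 5 replicate 1 or 4 (0.47 to 0.50). *Aplnr*, the apelin receptor, measured 3.41 to 6.50 TPM in controls, 4.94 to 7.27 at day 1 and 7.49 to 11.5 at day 5, and rose by 0.88 ± 0.17 (SE, limma adjusted p = 0.00783). *Cd93* (0.35, adjusted p = 0.0376) and *Ecscr* (0.43, adjusted p = 0.00591), both surface proteins of endothelium, passed in limma by the adjusted p alone. With them, 5 of the 30 genes were higher by the adjusted p, beside 4.13% of all genes. *Ecscr* passed in all 13 fits without 1 library, and *Cd93* in 6 of 13 (limma adjusted p up to 0.117). No gene of this list passed at day 1, where 2 of 30 had an unadjusted p under 0.05.

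Of 18 genes that inflammatory cytokines induce in endothelium, 12 were tested and 2 rose at day 5, beside 2.42% of all genes. Of the 12 differences, 8 were above 0 and 4 below at day 5 (median 0.11), and 8 above and 4 below at day 1 (median 0.02). *Ch25h*, cholesterol 25-hydroxylase, lay at 1.14 to 4.75 TPM in controls and 4.74 to 8.17 at day 5 (1.18, limma adjusted p = 0.0294), and did not pass without control replicate 1, 3 or 5 or day 5 replicate 1, 2 or 4 (adjusted p up to 0.0866). *Tnfaip3*, which encodes the NF-kB inhibitor A20, lay at 4.97 to 8.88 TPM in controls, 9.68 to 16.2 at day 1 and 11.7 to 13.4 at day 5. All MN libraries of both days lay above every control. Its limma difference was 0.79 at day 1 (adjusted p = 0.109) and 0.81 at day 5 (adjusted p = 0.00867). The study, which tested counts with DESeq2, placed *Tnfaip3* in its network of genes changed at both days. It also measured key genes by qPCR in glomeruli of both days, with primers listed for *Tnfaip3*, and reported that they followed its RNA-Seq findings. Both *Ch25h* and *Tnfaip3* are expressed by other cell types as well. The other 10 tested genes did not pass at day 5. At day 1 no gene of the list was called in limma (1 of 12, *Tnfaip3*, had an unadjusted p under 0.05), and without control replicate 5 *Tnfaip3* was called there (0.70, adjusted p = 0.0387).

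Of 10 genes of sprouting endothelium, *Nid2* and *Adm* rose at day 5, or 2 of 10 tested, beside 2.42% of all genes. The list as a whole was mixed, with 7 differences above 0 and 3 below at day 5 (median 0.07, lowest -0.77). At day 1, 4 were above 0 and 6 below. The cell of origin of these transcripts was not measured. *Nid2*, the basement membrane protein nidogen-2, lay at 49.5 to 71.1 TPM in controls, 58.8 to 73.6 at day 1 and 106.8 to 113 at day 5, with a difference of 0.91 ± 0.09 (SE, limma adjusted p = 5e-05). *Adm*, the ligand of the *Calcrl* receptor, lay at 69.1 to 109.4 TPM in controls, 122.9 to 173.2 at day 1 and 109.9 to 270.03 at day 5, with all MN libraries above every control. Its limma difference was 0.81 at day 1 (adjusted p = 0.244) and 1.04 at day 5 (adjusted p = 0.0192), which did not pass without day 5 replicate 1 or 4 (adjusted p up to 0.0567). Of the arterial genes, 0 of 7 were called by limma at day 5 (2 with an unadjusted p under 0.05), and of the venous and lymphatic genes 0 of 4 tested (0 with an unadjusted p under 0.05), where 3.21% of all genes were called in either direction. Leukocyte markers summed to 11.45 to 22.7 TPM in controls, 15.1 to 26.4 at day 1 and 14.8 to 27.1 at day 5. Platelet markers summed to 8.44 to 11.2, 8.46 to 17.1 and 5.58 to 15.1 TPM.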

How the data were processed

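Total RNA of isolated glomeruli was sequenced by Novogene (paired-end, NovaSeq), 1 library per mouse. The study assessed the quality of reads and trimmed them (FastQC 0.11.9 and Trimmomatic 0.39). It quantified them with Kallisto 0.46.2 against GRCm39 (Ensembl). The authors deposited TPM values for 35967 gene symbols in 13 libraries, which summed to 989774 to 996064 per library. The depth of each library was unknown, since TPM do not keep it, and the study's test of counts with DESeq2 could not be repeated here.

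Groups came from the sample labels. Libraries were scaled by the median ratio to a reference over 15772 genes above 0 throughout (factors 0.954 to 1.04), and log2(scaled TPM + 0.5) was used. One linear model over the 3 groups was fitted in R 4.3.3 (limma 3.58.1, eBayes with trend = TRUE), with Benjamini-Hochberg adjustment over 14322 genes. Alternatives covered pseudocounts, scaling, filters, the trend, a fit of 2 groups only, a replicate block, the adjusted p alone, and each library left out. The tubular score as a covariate was added after seeing the data.

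The members and lists were chosen with earlier results of these data known. Values per library are given for activation markers, members called in any comparison, and *Pecam1*, *Cdh5*, *Emcn*, *Ehd3* and *Plvap*. Values of other members, chosen after their values were seen, are given as well. Genes of other lists are named where called, and *Cd93*, *Ecscr* and *Synpo* were added after their values were seen. Loci and upstream bases were read from GRCm39 with GENCODE, and each member symbol matched 1 locus. Figures used matplotlib 3.10.9 in Python 3.11.15.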

Additional observations from a re-analysis of the deposited data

Results flagged for a closer look

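Single libraries lay far from the rest of their group, by Dixon's criterion at 95%, in 8 of 105 combinations of member and group, where chance alone gives about 1 in 20. In control replicate 5, *Cdh5* measured 225.2 TPM (next lowest control 280.8), *Cd34* 275.5 (341.6), *Erg* 107.1 (131.4) and *Ets1* 256.1 (307.0). In control replicate 2, *Gata5* measured 134.5 TPM, above the next control at 111.3. In day 1 replicate 1, *Icam2* measured 368.8 TPM and *Nos3* 56.74, with the next day 1 libraries at 309.5 and 50.03. In day 1 replicate 2, *Selp* measured 0.7786 TPM against at most 0.127 in the other day 1 libraries. Of these members, *Cd34* kept a limma adjusted p under 0.05 at day 5 without control replicate 5 (0.37, adjusted p = 0.00813), and *Nos3* did not (0.27, adjusted p = 0.0843).

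The difference between day 5 and day 1 MN libraries itself passed the adjusted p in limma for 2 genes of the endothelial lists, neither of them a member. It was 0.41 for *Calcrl* (adjusted p = 0.0211) and 0.71 for *Nid2* (adjusted p = 0.000532), with all 4 day 5 libraries above all 4 day 1 libraries for both. In the fits without 1 library, *Nid2* passed in all 13 and *Calcrl* in 9 of 13 (limma adjusted p up to 0.0791). With the tubular score as a covariate the differences between the days were 0.30 (limma adjusted p = 0.34) for *Calcrl* and 0.57 (adjusted p = 0.0272) for *Nid2*. The tubular score did not overlap between day 1 and day 5, so that setting cannot tell it apart from the day.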

How the results depend on the processing

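The count of members called at day 1 was 0 under every setting tried. At day 5 it was 1 with only 2 groups in the fit (*Fabp4*), 1 with the replicate block (*Procr*), 5 by the adjusted p alone, and 0 to 1 without 1 library (*Procr* without control replicate 5 or day 5 replicate 2, *Fabp4* without day 1 replicate 2). Between the days it was 1 with the tubular covariate (*Procr*, -0.67, limma adjusted p = 0.0195) and 0 to 1 without 1 library (*Fabp4* without day 1 replicate 2). The tubular level did not overlap between the days, which limits that covariate fit. No member with an adjusted p under 0.05 in either fit changed sign. Among the other values, the sign differed in 63 of 814 at day 1, 15 of 814 at day 5 and 36 of 814 between the days. *Adgrl4* and *Calcrl* fell under the fold threshold at day 5 on unscaled TPM (0.47 and 0.47), after quantile normalization (0.43 and 0.45) and with the covariate (0.50 and 0.49), and *Adgrl4* with the block (0.50), while their adjusted p stayed under 0.05.

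Over all genes, 13 were called at day 1. The count was 6 without a filter, 7 without the trend, 2 with only 2 groups, 149 with the replicate block, 0 with the tubular covariate, and 3 to 218 without 1 library (218 without control replicate 5). At day 5 it was 460, with 876 by the adjusted p alone and 326 to 474 without 1 library. Between the days it was 259, with 153 when all libraries had to reach a TPM of 1, 414 with only 2 groups, 139 with the covariate, and 150 to 437 without 1 library (437 without control replicate 5). Of the genes called between the days, 78.0% were higher at day 5, against 46.6% with only 2 groups and 55.0% with the block. At day 1 the block gave 96.6% higher against 61.5%, and the fit without control replicate 5 gave 96.3%.

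The replicate numbers share only a label. Deviations of same-numbered libraries correlated between -0.0562 and 0.0913, none over 0.1. Replicate number 5 existed only in control, so the replicate block set control replicate 5 aside, much as leaving it out did. At day 5 the 2 settings gave 0.37 and 0.37 for *Cd34* and -0.51 and -0.51 for *Procr*, and they are not separate checks. With the block, 3 members passed by the adjusted p at day 5 (*Cd34*, *Emcn* and *Procr*), the same as without control replicate 5. Groups of 4 and 5 limit the precision, and depth could not be weighed.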
